A study of Mus musculus with 96 samples.

Results

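To follow time-of-day gene expression in the mouse cerebellum after sleep deprivation (SD), 12 libraries from SD cerebellum were examined, out of 96 libraries in the whole series. The members are all libraries titled SD and cerebellum, 2 for each circadian time (CT) sampled, from CT4 to CT24 at steps of 4 h. These came from wild-type (WT) C57BL/6 mice, male and 6 to 8 weeks old, that spent 10 h of their usual resting phase in a slowly turning drum with food and water at hand. The comparison groups were 12 libraries of control cerebellum from mice left undisturbed, and 12 each of SD forebrain and SD liver, at the same times and ages and from the same strain. No allele, drug or transgene set the groups apart. The authors state 2 biological replicates for each tissue and time. The labels number them without tying a number to one mouse, so the p-values measure the spread between libraries. Library totals ranged from 26.8 to 30.9 M counts, so a gene at 1 CPM (its count per M counts of the library) rested on 26.8 to 30.9 counts per library.

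The circadian clock is a feedback loop of transcription that runs in nearly all cells. Arntl (also called Bmal1) and Clock encode the activators, which bind E-box sequences in the Per, Cry, Ciart and Nr1d genes. The PER, CRY and CIART proteins then repress these activators. NR1D1 and NR1D2 (REV-ERB) repress Arntl, and the ROR receptors activate it. In the cerebellum the clock is known to run in neurons and in Bergmann glia, and its amplitude is low compared with that of the liver.

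The main comparison set CT4 and CT8 (4 libraries) against CT16 and CT20 (4 libraries), with log2 fold changes coded as CT16 and CT20 minus CT4 and CT8. The windows are named by these labelled times. A second label of the same samples gives each time as 4 h less, as hours in constant darkness, so that the library labelled CT4 also carries DD0. In textbook accounts Arntl is highest near the start of the subjective day and Per2 near the start of the subjective night, which is nearly the opposite of the labelled times of their peaks here. The authors give clock hours for the light cycle of their mice and for the deprivation, but do not tie CT0 to a clock time. Each peak is therefore a labelled time and not a phase of day or night. Tissue was collected at the circadian times that followed the deprivation. In the SD libraries a change with labelled time therefore cannot be told apart from a change with time since deprivation.

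The tissue label was checked against marker genes before any comparison. The 7 Purkinje cell markers summed to between 4363 and 6753 CPM in the 12 libraries, and the 10 granule cell markers, of which Neurod1 was listed at 0, to between 4052 and 6212 CPM. The 6 forebrain markers stayed between 57.2 and 87.4 CPM, and the 8 brainstem markers reached at most 4.72 CPM with Hoxb4 and Hoxb5 at 0. That maximum was in CT4 replicate 2, and the next highest library, CT4 replicate 1, was at 1.19 CPM. Of the 12 libraries, CT4 replicate 2 also had the highest oligodendrocyte and ependyma sums and the lowest Purkinje and granule cell sums. Choroid plexus markers ranged from 26.5 to 3360 CPM, a spread that is given again beside the results it moved with. Depth, the antisense share, mitochondrial RNA, residual ribosomal RNA, the balance of long and short genes, and the choroid plexus score did not pass an exact two-sided permutation test between the windows (p from 0.143 to 0.914, where 70 splits allow a smallest p of 0.0286).

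Of 21412 genes tested by edgeR's quasi-likelihood test, 80 changed between the windows at a Benjamini-Hochberg adjusted p under 0.05, which is 0.374% of the genes. A total of 15 were higher at CT16 and CT20 (0.0701%) and 65 were lower (0.304%). The median absolute log2 fold change of these genes was 0.69, and 20 of them changed more than 1 on the log2 scale. The 4 early and 4 late CPM values did not overlap for 55 of the 80, as for 6.42% of all genes tested. A 24 h cosinor, which fits one cosine wave to the 12 libraries, called 21 genes (0.0981%) with log2 amplitudes from 0.24 to 1.02 and a median of 0.45. A test for any difference among the 6 times called 57 genes (0.266%), and 28 of these were also called between the windows. The number of window genes changed when single libraries were left out. The gene filter was rerun in each of these refits, so 22121 to 22312 genes were tested there, against 21412. The part of the filter in these changes was not tested. It fell from 80 to 0 without CT20 replicate 2 (edgeR, with 2161 genes at an unadjusted p under 0.05), to 1 without CT8 replicate 1 or CT24 replicate 2, to 3 without CT16 replicate 1, to 5 without CT8 replicate 2, to 6 without CT24 replicate 1, to 9 without CT16 replicate 2, to 25 without CT4 replicate 2 and to 47 without CT20 replicate 1. It rose to 880 without CT4 replicate 1, and to 496 and 499 without CT12 replicates 1 and 2.

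Of the clock genes, Arntl, Nr1d1, Ciart and Tef passed the cosinor, and Nr1d1, Cry1 and Ciart passed the window test (edgeR). Nr1d1 and Ciart were higher at CT16 and CT20, and Cry1 was lower. Values are given below by role.

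Among the activators, Arntl (chromosome 7, 113207465 to 113314126 on GRCm38) gave the smallest cosinor p of all genes. Its level was 63.0 and 63.7 CPM at CT4, 75 and 81.6 at CT8, 91.0 and 92.4 at CT12, 73.8 and 70.6 at CT16, 51.1 and 53.3 at CT20, and 48.1 and 46.7 at CT24. The replicates at each time lay close together, the CT12 pair was above all other libraries and the CT24 pair below all. The log2 amplitude was 0.45 with a fitted peak at CT11.1 (adjusted p = 7.54e-05, edgeR cosinor), and the peak stayed between CT10.9 and CT11.3 when any single library was left out. The windows lie on both flanks of this wave, and the window difference was -0.18 ± 0.05 (SE, 4 and 4 libraries, adjusted p = 0.143). Clock, the partner of Arntl, had its highest levels at CT12 too, at 228 CPM in both libraries, and its lowest at CT20 and CT24, from 174 to 184 CPM. Its cosinor did not pass (log2 amplitude 0.16, adjusted p = 0.105). Npas2, which can replace Clock, lay between 2.66 and 6.4 CPM with no call.

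**Figure D1:**
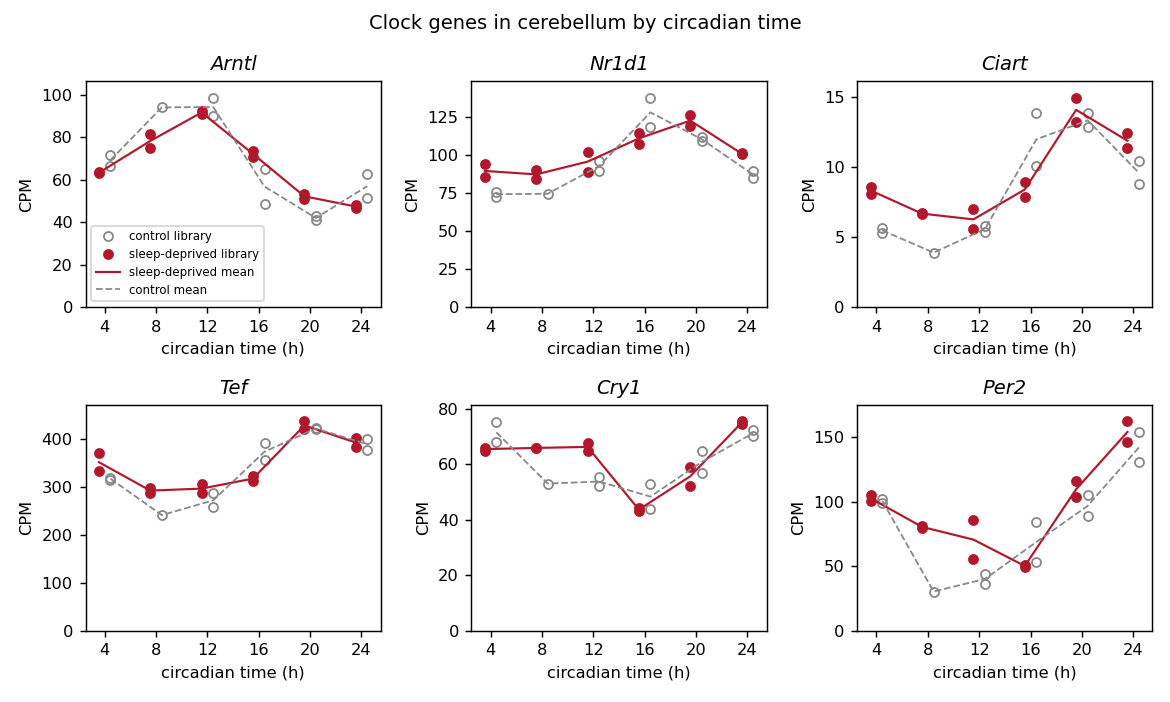
Levels of 6 clock genes in CPM (y axis, from 0) against circadian time in h (x axis). Filled red points are the 12 SD cerebellum libraries and the red line their mean at each time; open grey points and the dashed line are control cerebellum, without control CT8 replicate 1. Arntl is highest at CT12 and lowest at CT24 in SD, and Ciart is highest at CT20.

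Among the repressors, Cry1 (chromosome 10, 85131700 to 85185064) passed the window test with nearly equal values in the early window. At CT4 and CT8 the 4 libraries read 64.9, 66.0, 65.8 and 66.0 CPM. At CT16 they read 44.2 and 43.2 CPM, and at CT20 52.2 and 59.2 CPM. The windows did not overlap, and the log2 fold change was -0.39 ± 0.06 (SE, 4 and 4 libraries, adjusted p = 0.0348, edgeR). At CT24 Cry1 stood at 75.4 and 74.5 CPM, the highest of the series of times, and the cosinor did not pass (adjusted p = 0.261).

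Ciart, also known as Chrono (chromosome 3, 95878503 to 95882251), was at 8.09 and 8.60 CPM at CT4, 6.67 and 6.71 at CT8, 5.57 and 6.98 at CT12, 8.94 and 7.88 at CT16, 13.2 and 15 at CT20, and 12.4 and 11.4 at CT24. The CT20 libraries carried the difference, since CT16 replicate 2 fell within the range of the early window. The log2 fold change between the windows was 0.56 ± 0.11 (SE), with an adjusted p of 0.05 that lay just under the threshold before rounding (edgeR), and the cosinor peak was at CT21.7 with a log2 amplitude of 0.60 (adjusted p = 0.00895).

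Per1 and Per2, the light-responsive period genes, were highest at CT24. Per2 was at 162 and 146 CPM there, against 105 and 100 at CT4, 79.9 and 80.9 at CT8, 55.7 and 85.5 at CT12, 49.7 and 50.5 at CT16, and 103 and 116 at CT20. The late window therefore joins its lowest time with one near the CT4 level, and the window difference was -0.27 ± 0.11 (SE, adjusted p = 0.289) while the test across all times passed (adjusted p = 0.0146, edgeR). Per1 passed the same test (adjusted p = 0.018), with levels from 51.4 and 62.5 CPM at CT16 to 112 and 118 CPM at CT24. Per3 and Cry2 passed none of the 3 tests, with window differences of 0.21 ± 0.09 and 0.04 ± 0.06 (SE).

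Of the nuclear receptors of the clock, Nr1d1 (chromosome 11, 98767932 to 98775333) passed. It read 85.5, 94.0, 90.4 and 84.6 CPM at CT4 and CT8, and 115, 107, 119 and 126 CPM at CT16 and CT20. The windows did not overlap, and the mean rose from 88.6 ± 4.43 to 117 ± 8.01 CPM (SD, n = 4 libraries each), a log2 fold change of 0.42 ± 0.06 (SE, adjusted p = 0.0289, edgeR). The cosinor placed the peak at CT19.0 (adjusted p = 0.022). Nr1d2 had the same direction, from 299 to 356 CPM at CT4 and CT8 and from 350 to 430 CPM at CT16 and CT20, with an adjusted p of 0.101 (edgeR). Rora and Rorb did not pass, with window differences of 0.09 and -0.19.

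Among the output factors, which carry the rhythm to other genes through D-box and E-box sites, Tef (chromosome 15, 81802421 to 81826863) passed the cosinor with a peak at CT22.2 (log2 amplitude 0.29, adjusted p = 0.0415, edgeR). It was at 288 and 298 CPM at CT8 and at 420 and 437 CPM at CT20. Hlf, Nfil3, Bhlhe40 and Bhlhe41 passed no test. Nfil3, a repressor at D-box sites, had a window difference of -0.38 ± 0.10 (SE, adjusted p = 0.116), and Bhlhe40 one of 0.24 ± 0.07 (SE, adjusted p = 0.122). Dbp gave 0 to 2 counts in each SD cerebellum library and at most 5 in any of the 96, so it was not tested. So low a count in all tissues, liver included, is unusual for this gene, and the part of the mapping quality filter or of the annotation in it was not tested, so it does not show absent expression. Avp (0 to 3 counts) and Prok2 (0 to 1 count) were not tested either. Of the clock-controlled genes Usp2, Wee1, Nampt and Cdkn1a, none passed, and of the 9 clock modifiers, which include the kinases Csnk1d and Csnk1e, none passed.

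The upstream 250 bases of 5 of these genes were read from RefSeq on GRCm38.p6 and searched on both strands for 3 motifs, the E-box CACGTG, the D-box TTATGNAA and the REV-ERB and ROR core TAGGTCA. Of 32851 promoter windows of this length in the table, 6.02% held the E-box, 3.07% the D-box and 2.23% the receptor core. The 4 windows below, of the 3 genes with a match, are shown because their genes passed a test of time in SD cerebellum and hold the E-box letters, which stand in capitals; each runs 5′ to 3′ on the strand of its gene and ends at the base before the start. Neither Arntl nor Nr1d1 held any of the 3 motifs in these letters. The starts are those of RefSeq, while the gene positions given above are those of GENCODE M21. By those positions both Tef windows lie within the gene, and the Ciart and Cry1 windows reach into their genes. A match is a description of the letters and not of binding.
Ciart, chr3:95882229-95882478, minus strand: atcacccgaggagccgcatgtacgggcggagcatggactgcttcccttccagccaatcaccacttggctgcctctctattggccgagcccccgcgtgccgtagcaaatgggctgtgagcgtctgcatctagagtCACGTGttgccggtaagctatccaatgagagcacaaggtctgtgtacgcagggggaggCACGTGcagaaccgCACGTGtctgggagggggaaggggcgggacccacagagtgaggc
Cry1, chr10:85185055-85185304, minus strand: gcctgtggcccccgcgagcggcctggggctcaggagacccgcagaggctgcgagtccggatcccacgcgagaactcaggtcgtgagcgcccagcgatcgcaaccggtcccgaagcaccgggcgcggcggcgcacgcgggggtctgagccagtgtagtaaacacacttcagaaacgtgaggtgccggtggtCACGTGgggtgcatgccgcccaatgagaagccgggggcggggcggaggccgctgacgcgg
Tef, first start, chr15:81802423-81802672, plus strand: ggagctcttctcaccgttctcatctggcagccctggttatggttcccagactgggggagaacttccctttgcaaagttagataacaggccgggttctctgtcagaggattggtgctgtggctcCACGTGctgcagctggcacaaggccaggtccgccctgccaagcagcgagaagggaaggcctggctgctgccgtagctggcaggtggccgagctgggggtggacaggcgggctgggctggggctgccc
Tef, second start, chr15:81811164-81811413, plus strand: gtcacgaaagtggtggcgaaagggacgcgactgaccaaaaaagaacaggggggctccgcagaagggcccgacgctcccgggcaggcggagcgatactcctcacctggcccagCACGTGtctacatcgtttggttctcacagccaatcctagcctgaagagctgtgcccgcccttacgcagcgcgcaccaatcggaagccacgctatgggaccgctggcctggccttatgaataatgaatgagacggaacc
The Ciart window held 3 E-boxes, which began 116, 58 and 44 bases before the start. The Cry1 window held 1 at 60 bases, and the Tef windows held 1 each at 127 and 138 bases. Of these genes Ciart and Tef were highest at CT20, whereas Cry1 was highest at CT24 and lowest at CT16.

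The same difference of windows was then set against control cerebellum, to ask whether the clock genes moved by a different amount after SD. Control CT8 replicate 1 was left out, because its antisense genes held 22.2% as many counts as their sense partners (the antisense share). This share was 4.73% to 5.78% in the other control libraries and 4.89% to 5.62% in SD. No gene of 22828 differed at an adjusted p under 0.05 (0%, smallest adjusted p = 0.129, edgeR), and 3044 had an unadjusted p under 0.05. The window contrast of control cerebellum, taken within this joint fit with SD, called 18 genes (0.0789%). DESeq2 called 134 genes on the contrast of the conditions. Without SD CT4 replicate 1, edgeR called 478.

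Of the clock genes, the differences nearest the threshold were those of Ciart, Hlf, Arntl and Per2. Ciart had a window difference of 0.56 ± 0.11 in SD and 1.44 ± 0.13 in control (difference -0.88 ± 0.17, SE, adjusted p = 0.129, edgeR). Arntl had -0.18 ± 0.08 in SD and -0.73 ± 0.09 in control (difference 0.56 ± 0.12, adjusted p = 0.13). The Arntl libraries at CT8 read 75 and 81.6 CPM in SD and 94.2 CPM in the control library kept. Hlf, an activator at D-box sites, had -0.06 ± 0.06 in SD and 0.37 ± 0.07 in control (adjusted p = 0.129), and Per2 had -0.28 ± 0.13 and 0.55 ± 0.15 (adjusted p = 0.146). At CT8 Per2 stood at 79.9 and 80.9 CPM in SD and at 30.4 CPM in the control library, which makes this the time at which the conditions lay farthest apart. None of these differences passed. Nr1d1 and Cry1 differed by -0.25 ± 0.09 (adjusted p = 0.232) and -0.20 ± 0.10 (adjusted p = 0.376). The test of a difference in the cosinor called 0 of 22828 genes too (smallest adjusted p = 0.0586, for Colgalt2), with 2332 at an unadjusted p under 0.05 and 49 called by DESeq2.

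**Figure D2:**
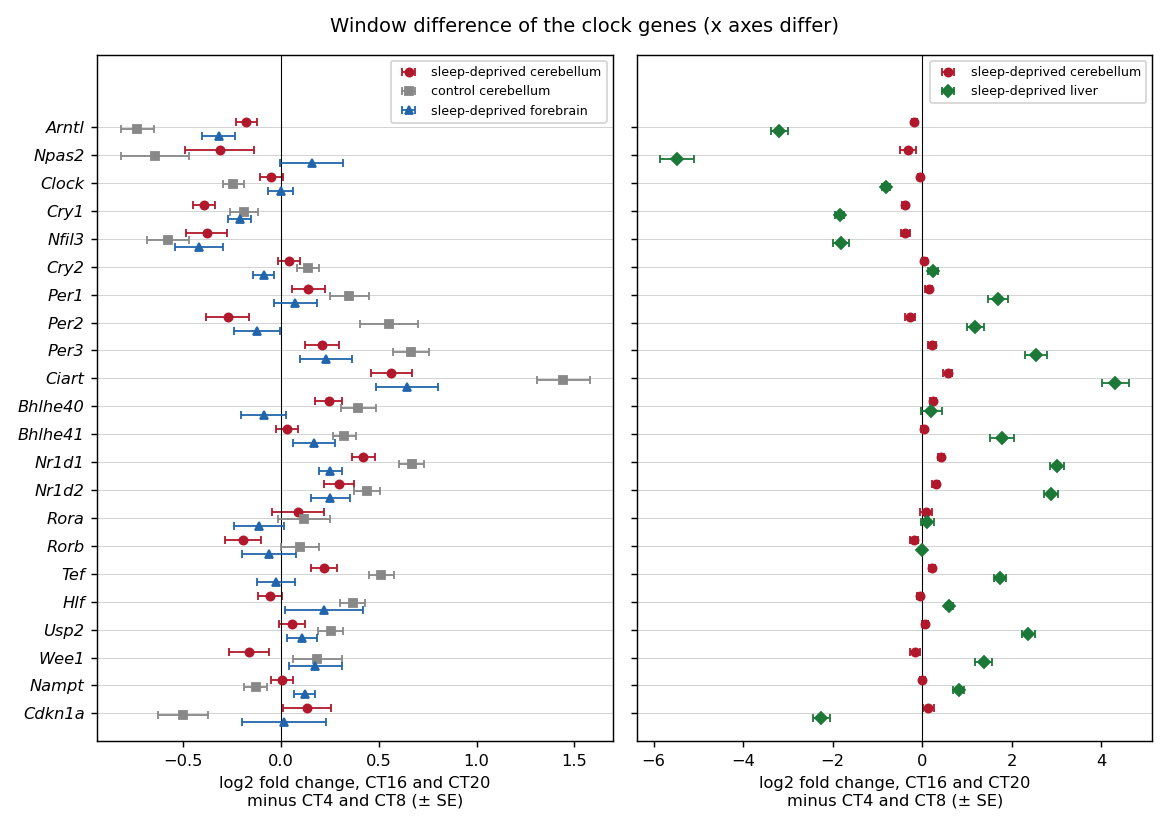
Window differences of 22 clock genes as log2 fold change, CT16 and CT20 minus CT4 and CT8 (x axis), with bars of ± SE. The left panel shows SD cerebellum, control cerebellum and SD forebrain, and the right panel SD cerebellum and SD liver on a wider axis. In liver Arntl lies at -3.19 and Nr1d1 at 3.0, against -0.18 and 0.42 in cerebellum.

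In the liver of SD mice the same window contrast, within a joint fit with SD cerebellum, called 2253 of 23832 genes (9.45%). There Arntl fell by 3.19 and Npas2 by 5.48 on the log2 scale, while Ciart was higher by 4.31 and Nr1d1 by 3.0. The window difference of 18 of the 23 clock genes differed between SD cerebellum and SD liver, beside 2.92% of all genes (697 of 23832, edgeR). SD forebrain, in its joint fit with SD cerebellum, called 82 genes between its own windows (0.352%). Its window difference differed from that of the cerebellum for 84 of 23284 genes (0.361%), and none of these were clock genes. The clock genes had forebrain values such as 0.25 ± 0.06 for Nr1d1, -0.32 ± 0.08 for Arntl and 0.64 ± 0.16 for Ciart (SE), and their differences from the cerebellum had adjusted p-values of 0.365, 0.621 and 0.942 (edgeR). The fits to different tissues share the SD cerebellum libraries. They hold more libraries than the fit of SD cerebellum alone, so the counts of called genes are not on equal terms.

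Together with the clock genes, the 12 named genes that were higher at CT16 and CT20 ranged from 0.29 (Map2k6) to 1.13 (Zbtb16) on the log2 scale. The largest changes in each direction were named only where the windows did not overlap, so non-overlap adds no support for those genes. Slc7a5, which encodes LAT1, the light chain of a transporter of large neutral amino acids (chromosome 8, 121881150 to 121907694), read 58.7, 54.4, 53.3 and 52.0 CPM at CT4 and CT8 and 83.8, 85.8, 76.0 and 76.3 CPM at CT16 and CT20. All late libraries lay above all early ones, with a log2 fold change of 0.58 ± 0.07 (SE, adjusted p = 0.0169, edgeR) and a cosinor peak at CT18.0 (adjusted p = 0.0143). Slc16a11, a monocarboxylate transporter, differed by 0.54 ± 0.10 (adjusted p = 0.0459).

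Of the other named genes in this direction, Itpka, a kinase of inositol trisphosphate, was at 18.4 to 27.2 CPM early and 30.2 to 33.2 CPM late (0.49 ± 0.08, SE, adjusted p = 0.0446, edgeR). Grid2ip, also called delphilin, which binds the GluD2 receptor at parallel fibre synapses, rose from 102 ± 12.7 to 135 ± 3.84 CPM (SD, n = 4 libraries each). Its log2 fold change was 0.42 ± 0.08 (SE, adjusted p = 0.0462). Ryr1, a calcium release channel, rose by 0.41 ± 0.07 (adjusted p = 0.0459), and Lypd6, a modulator of nicotinic receptors, by 0.50 ± 0.09 (adjusted p = 0.0459). The kinase Map2k6, the glycosyltransferase B4galnt4 and Elp6, a subunit of the Elongator complex, passed with log2 fold changes from 0.29 to 0.48.

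Zbtb16 (chromosome 9, 48654297 to 48836222), a zinc-finger repressor that glucocorticoids induce in many cells, had the largest amplitude among the cosinor genes. It was at 26.6 and 20.1 CPM at CT4, 10.4 and 11.7 at CT8, 10.3 and 13.0 at CT12, 20.9 and 40.4 at CT16, 41.2 and 37.4 at CT20, and 33.1 and 39.8 at CT24. The replicates at CT16 differed most, and CT16 replicate 1 fell within the range of CT4. The log2 amplitude was 1.02 with a peak at CT21.4 (adjusted p = 0.00895), and the window difference was 1.13 ± 0.17 (SE, adjusted p = 0.0435, edgeR). Of the 13 genes in a list of glucocorticoid response, 12 had positive window differences and only Zbtb16 passed, where 0.0701% of all genes passed in that direction. With an unadjusted p under 0.05 there were 5 higher and 1 lower, against 5.03% and 9.26% of all genes. Beside Zbtb16 these were Mt2 (0.54), Fkbp5 (0.63), Klf9 (0.27) and Nfkbia (0.32), and in the other direction Pdk4 (-0.42). The median over the list was 0.23, against -0.001 over all genes. With windows 4 h earlier all 13 had negative differences and the median was -0.38. In control cerebellum Zbtb16 had a window difference of 1.44 ± 0.30, and the 2 conditions did not differ by test (adjusted p = 0.784).

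**Figure D3:**
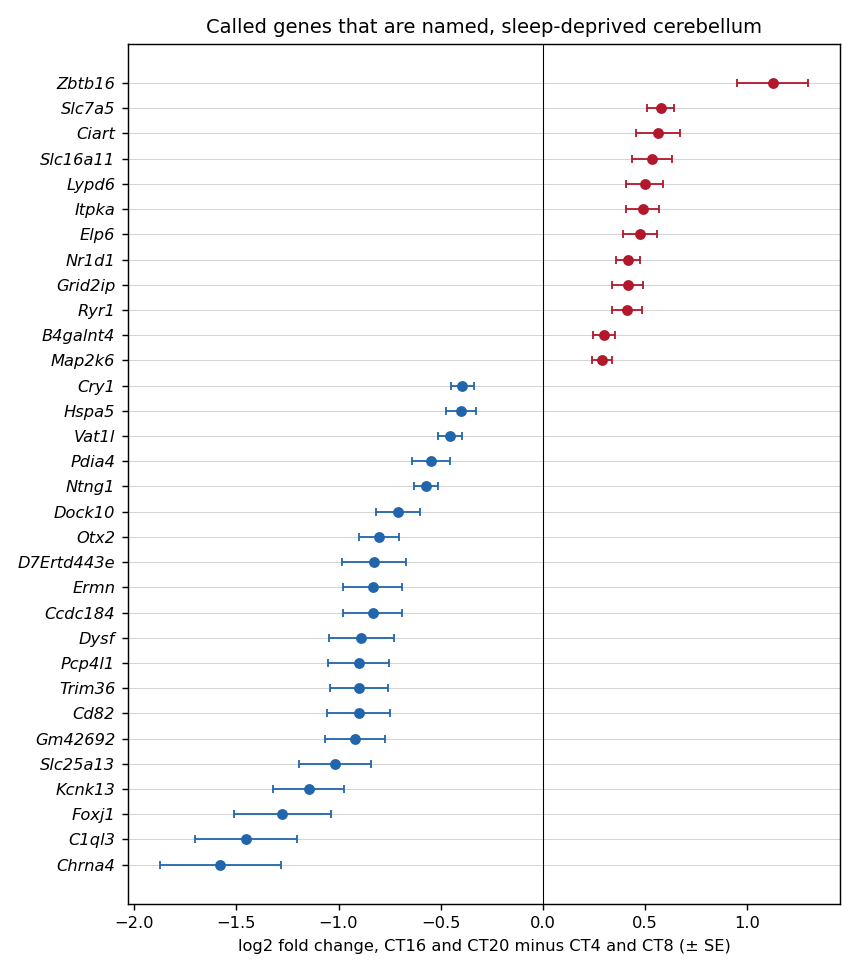
Log2 fold change between the windows (x axis, points, with bars of ± SE) for the 32 named genes that passed in SD cerebellum, 12 higher (red) and 20 lower (blue) at CT16 and CT20. Changes run from -1.58 for Chrna4 to 1.13 for Zbtb16.

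The gene with the smallest window p was Ntng1, which encodes netrin-G1, a membrane-anchored guide of axons and synapses (chromosome 3, 109780040 to 110144011). It read 42.5 and 46.2 CPM at CT4, 44.7 and 48.0 at CT8, 33.9 and 34.6 at CT12, 27.8 and 27.2 at CT16, 33.2 and 32.9 at CT20, and 43.8 and 42.2 at CT24. Replicates lay close together at every time, and the windows did not overlap. The log2 fold change was -0.57 ± 0.06 (SE, adjusted p = 0.00805, edgeR), and the cosinor peak lay at CT4.3 (adjusted p = 0.0143). Vat1l lay between 131 and 157 CPM early and between 90.1 and 126 CPM late (log2 fold change -0.45, adjusted p = 0.0287, edgeR). It had a different profile, with the highest levels at CT12 (172 and 160 CPM).

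The largest falls among the named genes reached more than 1 on the log2 scale. Chrna4, a nicotinic receptor subunit, was at 7.04, 12.9, 6.74 and 5.81 CPM early and 2.31, 3.99, 3.01 and 1.33 CPM late (-1.58 ± 0.29, SE, adjusted p = 0.0466, edgeR). C1ql3, a secreted synaptic organizer, fell from 27.1 ± 5.56 to 9.77 ± 3.36 CPM (SD, n = 4 libraries each). Kcnk13, a two-pore potassium channel, had a log2 fold change of -1.15 ± 0.17, Slc25a13, a mitochondrial aspartate and glutamate carrier, -1.02 ± 0.18, and Cd82, a tetraspanin, -0.90 ± 0.16. Pcp4l1, Dysf, Trim36, Ccdc184, D7Ertd443e and the unclassified transcript Gm42692 fell by 0.83 to 0.92 on the log2 scale. Kcnk13, Trim36 and Gm42692 passed the cosinor as well, each with a peak between CT5.4 and CT5.7.

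Marker lists of several cell types had window differences of one sign. In bulk tissue, fewer cells of a type and less RNA per cell cannot be told apart. All 10 oligodendrocyte markers, which encode myelin proteins and their partners, were lower at CT16 and CT20, all 10 with an unadjusted p under 0.05 where 9.26% of all genes were lower at that level. Windows did not overlap for 6 of them, against 3.72% of all genes in that direction, and 1 passed the adjusted test. That gene was Ermn, which encodes ermin of the myelin sheath (chromosome 2, 58045113 to 58052864). It read 50.2, 74.2, 55.1 and 59.7 CPM early and 34.8, 30.3, 39.4 and 27.9 CPM late, a log2 fold change of -0.83 ± 0.14 (SE, adjusted p = 0.0446, edgeR). Mbp, the myelin basic protein gene, had a window difference of -0.61. The median of the list was -0.55.

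The summed level of the 10 oligodendrocyte markers was 4037 to 5927 CPM in the early window and 2392 to 3751 CPM in the late one, with none at 0. All early libraries lay above all late ones. In control cerebellum the same sums overlapped, at 2503 to 4843 CPM and 2226 to 5488 CPM, here with control CT8 replicate 1 included. The control list median, from the fit without that library, was -0.12. In SD forebrain the list median was 1.13, and the window difference of Ermn differed between the tissues (-1.82 ± 0.36, SE, adjusted p = 0.048, edgeR). Oligodendrocyte precursor markers, with Sox10 at 0 of 6, summed to 83.6 to 107 CPM early and 59.1 to 81.3 CPM late. With the mean level of the oligodendrocyte markers as a covariate, chosen after seeing the data, no gene passed between the windows in edgeR, and 1007 genes had an unadjusted p under 0.05. This covariate itself separated the windows, at 7.21 to 7.73 early and 6.51 to 7.13 late (mean log2 CPM). The fit therefore cannot cleanly part a window difference from the marker level. In that fit Ntng1 had a log2 fold change of -0.56 (adjusted p = 0.232), and the median of the ependymal markers turned from -1.73 to 0.36. With windows 4 h later, 6 of the 10 markers were higher and the list median was 0.05. Without CT4 replicate 2, the library with the highest sum, all 10 stayed lower and the list median was -0.41. For CT8 against CT20 alone all 10 were lower, 3 with an unadjusted p under 0.05 (edgeR), and the median was -0.39.

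Purkinje cells are the output neurons of the cerebellar cortex. Their 7 markers were all higher in the late window at an unadjusted p under 0.05, where 5.03% of all genes were higher at that level, and none passed the adjusted test. The windows did not overlap for 4 of them, against 2.7% of all genes. Calb1, which encodes the calcium buffer calbindin, was at 453, 398, 532 and 541 CPM early and 589, 634, 551 and 647 CPM late (0.36 ± 0.08, SE, adjusted p = 0.0864, edgeR). The marker sums were 4363 to 5670 CPM early and 5846 to 6753 CPM late, and the list median was 0.31, against 0.06 in control. For CT4 against CT16 alone all 7 were higher at an unadjusted p under 0.05 (edgeR), with a median of 0.5. For CT8 against CT20 alone 6 were higher and 1 lower, 0 of them at that level, with a median of 0.18. Without the 3 window libraries high in choroid plexus markers, 6 were higher and 1 lower, with a median of 0.16. Granule cell markers were higher in 8 of 8 cases, and 2 of these, Slc17a7 and Fat2, had an unadjusted p under 0.05. Of all genes tested, 10634 were higher and 10778 lower. Among 22 subunits of GABA and glutamate receptors, 18 had positive differences, 6 of them with an unadjusted p under 0.05 (5.03% of all genes). The other 4 had negative ones, 3 of them with an unadjusted p under 0.05 (9.26% of all genes). None passed. The part of oligodendrocyte and Purkinje marker levels in the differences of other genes was not tested, since the covariate given above moved with the windows.

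**Figure D4:**
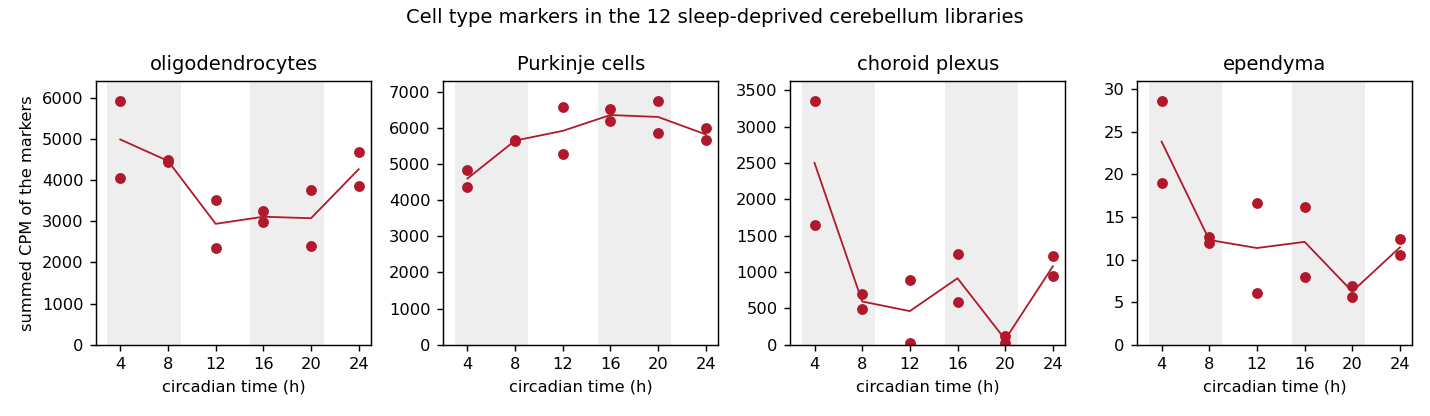
Summed CPM of the oligodendrocyte, Purkinje cell, choroid plexus and ependyma markers (y axes) by circadian time in h (x axis) in the 12 SD cerebellum libraries, with the 2 windows shaded. Oligodendrocyte sums are 4037 to 5927 CPM early and 2392 to 3751 CPM late, while choroid plexus sums overlap, from 26.5 to 3360 CPM.

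Choroid plexus, the epithelium that makes cerebrospinal fluid, lies in the ventricle next to the cerebellum. All 10 tested markers were lower late, 9 with an unadjusted p under 0.05 (9.26% of all genes), but the sums overlapped, at 498 to 3360 CPM early and 26.5 to 1244 CPM late, and none was at 0. Ttr, the transthyretin gene, was at 2770, 1338, 555 and 391 CPM early and 471, 1034, 82.7 and 1.92 CPM late. The 2 libraries of CT20 held the last of these values, far apart. The list median was -2.38, and in control it was 2.07 in the other direction. Otx2, a transcription factor of this list, passed, and its windows did not overlap. It read 26.7, 21.6, 19.1 and 16.2 CPM early and 11.7, 13.9, 10.5 and 10.9 CPM late (-0.80 ± 0.10, SE, adjusted p = 0.0198, edgeR). Otx2 is known from granule cell precursors of the developing cerebellum as well. Of 5 ependymal markers, Foxj1, the master regulator of motile cilia, passed (-1.28, adjusted p = 0.0466), although CT16 replicate 2, at 7.22 CPM, lay above both CT8 libraries. The sums of this list were 11.9 to 28.7 CPM early and 5.60 to 16.2 CPM late.

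There were 3 window libraries with choroid plexus markers above 1000 CPM in sum, namely CT4 replicates 1 and 2 and CT16 replicate 2. Without them the window test called 28 genes and the cosinor 138. With the choroid plexus score as a covariate the counts were 2 and 47. Both alternatives were chosen after seeing the data.

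Chaperones and folding enzymes of the endoplasmic reticulum (ER) also differed in one direction. All 14 had negative window differences, with a list median of -0.24. Of these, 12 had an unadjusted p under 0.05 (9.26% of all genes were lower at that level), 8 had windows that did not overlap (3.72%) and 2 passed the adjusted test (0.304%). Hspa5, which encodes the ER chaperone BiP (chromosome 2, 34771970 to 34777547), was at 156 and 159 CPM at CT4, 169 and 167 at CT8, 142 and 112 at CT12, 115 and 132 at CT16, 111 and 127 at CT20, and 260 and 248 at CT24. The log2 fold change between the windows was -0.40 ± 0.07 (SE, adjusted p = 0.0459, edgeR). Pdia4, a protein disulfide isomerase, fell from 40.5 ± 1.10 to 27.4 ± 2.19 CPM (SD, n = 4 libraries each), a change of -0.55 ± 0.09 (SE, adjusted p = 0.0446).

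The window comparison leaves out the time at which these genes were highest. At CT24 Hspa5 and Pdia4 were above all other libraries, and the median of the 14 genes stood 0.41 above its mean over time on the log2 scale, against -0.23 at CT20, the lowest time. Xbp1, a transcription factor that drives ER chaperone genes, had the smallest p in the test across all times (adjusted p = 0.00223, edgeR). It was at 45.6 and 52.5 CPM at CT4, 71.9 and 72.7 at CT8, 45 to 56.5 at CT12 to CT20, and 95.1 and 89.2 at CT24. In total 6 of the 14 genes passed that test, against 0.266% of all genes, and none passed the cosinor. Control cerebellum had a list median of -0.34 between the windows, with -0.46 ± 0.08 for Hspa5, and SD and control did not differ there by test (adjusted p = 0.865).

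**Figure D5:**
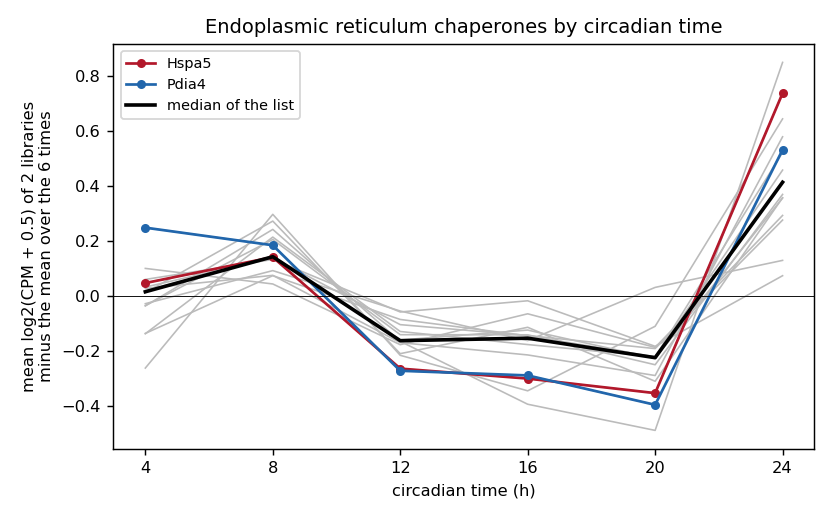
Mean log2(CPM + 0.5) of the 2 libraries at each time minus the mean over the 6 times (y axis), for the 14 ER chaperone genes against circadian time in h (x axis). Grey lines are single genes, with Hspa5, Pdia4 and the median of the 14 drawn apart. The median is at 0.41 at CT24, 0.14 at CT8 and -0.23 at CT20.

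Other lists gave few or no calls. Of 18 genes of cholesterol synthesis, 17 had negative differences, 9 with an unadjusted p under 0.05 (9.26% of all genes), and none passed. With the oligodendrocyte covariate, which itself separated the windows, 10 were higher and 8 lower, with a median of 0.016 in place of -0.13. Hmgcs1, which makes the HMG-CoA used by the pathway, had a difference of -0.32 ± 0.08 (SE, adjusted p = 0.107, edgeR). Of 17 immediate early genes, which neuronal activity induces, 14 had negative differences, as had 10778 of all 21412 genes. None passed between the windows, and Nr4a2 passed the test across all times (adjusted p = 0.0402). Of 9 endothelial markers, 6 were lower at an unadjusted p under 0.05 (9.26% of all genes) and none passed. Cytosolic ribosomal protein genes (70 tested) and nuclear genes of the respiratory chain (74 tested) had list medians of -0.02 and 0.01 with no call in any of the 3 tests.

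Of the 21 cosinor genes, 3 peaked between CT0 and CT4, 7 between CT4 and CT8, 1 between CT8 and CT12, 2 each in the next 2 intervals of 4 h, and 6 between CT20 and CT24. Those peaking before CT8 included Ntng1, Ermn, Kcnk13, Dock10, a guanine exchange factor, and Cdh19, a cadherin of glial cells. Those peaking after CT20 included Ciart, Tef, Zbtb16 and Mthfd1l, a mitochondrial enzyme of folate metabolism. Cnpy1, a cerebellar gene of the FGF pathway, peaked at CT14.0, at 243 and 255 CPM at CT12 against 169 to 174 CPM at CT4. Over the 12 libraries, the gene whose log2 CPM was most alike to that of Arntl was Clock (Pearson r = 0.961), followed by Gm24339, Gm26839, Kat14 and Gm15663 (r from 0.894 to 0.952). Those most alike to Nr1d1 were Fzd1, Gm15337, Bcar1, Nell1 and Slc7a5 (r from 0.850 to 0.886). These values are given as a description, since all genes share the same 12 libraries.

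Against SD forebrain, the window differences that parted most from those of SD cerebellum included Dock10, Cd82, Foxj1, Kcnk13, D7Ertd443e and Ermn, each negative in cerebellum and positive in forebrain. Dock10 had -0.70 ± 0.11 in cerebellum and 0.38 ± 0.11 in forebrain, a difference of -1.08 ± 0.15 (SE, adjusted p = 0.048, edgeR). Map2k6 and Elp6 differed in the other direction, by 0.57 ± 0.11 and 0.59 ± 0.11. Slc7a5 was higher in the late window in both tissues (0.58 ± 0.08 and 0.47 ± 0.08), and its difference did not pass (adjusted p = 0.694).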

How the data were processed

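Total RNA of mouse forebrain, cerebellum, liver and kidney was sequenced by the authors with a strand-specific protocol (Illumina TruSeq Total RNA). The authors deposited raw counts per gene. They had trimmed reads with Trim Galore 0.6.4, aligned them to GRCm38 with HISAT2 2.1.0, used SAMtools 1.9 to keep mapping quality 60, and assigned reverse-stranded pairs to genes with featureCounts 1.6.4. That filter drops reads with several equal placements, so genes with near-identical copies may be undercounted. Of 54833 features, 49585 had Ensembl identifiers, of which 49326 had a symbol in GENCODE M21, and 5248 were numbered loci.

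Groups were taken from the sample titles. Genes were kept by filterByExpr over the time groups, scaled by TMM (factors 0.978 to 1.03) and tested in edgeR 4.0.16 (R 4.3.3) by the quasi-likelihood test with Benjamini-Hochberg adjustment over all genes, at an adjusted p under 0.05. All 6 times entered the fit with 2 libraries each, which left 6 residual degrees of freedom. SE was the log2 fold change divided by the square root of F. Levels are CPM over the library total. The cosinor had a period of 24 h. Library measures were compared by exact permutation tests with Python 3.11.15, numpy 2.4.6, pandas 2.3.3 and scipy 1.17.1. Peak times were read as labelled CT. Intervals of depth cover counting error only.

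Named genes were all clock genes, the 12 largest non-overlapping window changes in each direction at 1 CPM or more, the 12 smallest cosinor p-values, the leading members of each list, the 5 smallest p-values of each further comparison, and the 5 genes most alike to Arntl and to Nr1d1. Some genes of the lists count in their list's values and are not reported by name here. Members, lists and rule were chosen with earlier results of these data known. Alternatives were other scaling factors, no filter, a replicate block, DESeq2 1.42.0, JTK_CYCLE, other windows, covariates and leaving out each library. The fits were tested on simulated data. No 2 libraries held identical counts (0 pairs).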

Additional observations from a re-analysis of the deposited data

Results flagged for a closer look

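In groups of 4 libraries, 11 of 202 tests for a single stray library were past Dixon's 95% critical value, where chance passes about 1 in 20. The gap of the stray library over the range was 0.844 for Cry1, 0.888 for Dock10, 0.925 for Pomc, 0.849 for Rora and 0.922 for Slc5a7 at CT4 and CT8. At CT16 and CT20 it was 0.895 for Hk2, 0.914 for Lum and 0.878 for Slc17a7. The antisense share at CT16 and CT20 gave 0.859, the brainstem marker sum at CT4 and CT8 gave 0.855 and the pituitary marker sum 0.925. For Cry1 the range itself was narrow, from 64.9 to 66.0 CPM.

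The window difference parted between SD cerebellum and SD forebrain by edgeR's test of the difference (cerebellum minus forebrain, log2) for Dock10 (-1.08), Cd82 (-1.56), Abi3bp (2.14), D7Ertd443e (-2.04), Foxj1 (-1.83), Elp6 (0.59), Kcnk13 (-1.37), Map2k6 (0.57), Olig1 (-1.16), Ermn (-1.82) and the numbered locus XLOC_236268 (-1.49).

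Against SD liver the differences (cerebellum minus liver, log2) were 3.01 for Arntl, 5.17 for Npas2, 0.76 for Clock, 1.46 for Cry1, -3.74 for Ciart, -1.54 for Per1, -1.46 for Per2, -2.33 for Per3, -2.58 for Nr1d1, -2.58 for Nr1d2, -1.52 for Tef, -0.65 for Hlf, 1.44 for Nfil3, -1.75 for Bhlhe41, -2.31 for Usp2, -1.53 for Wee1, -0.80 for Nampt and 2.39 for Cdkn1a. The leading genes outside the clock were Coq8a (2.0), Tubb2a (3.32), Ppard (2.36), Lgalsl (2.28) and Shank2 (1.64).

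Control CT8 replicate 1, a library outside the main comparisons, had an antisense share of 22.2%.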

How the results depend on the processing

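The window count of 80 was 6 with library sizes alone, 1614 without the filter (35280 genes tested), 541 with DESeq2, 2 from 8 libraries, 1 for CT4 against CT16, 0 for CT8 against CT20 (1607 at an unadjusted p under 0.05), 27 and 24 with windows 4 h earlier and later, 602 with the long and short gene balance as covariate, 0 and 2 with oligodendrocyte and choroid plexus scores as covariates, 28 without the 3 libraries high in choroid plexus markers, and 0 to 880 without single libraries. The cosinor count of 21 became 12, 1940 and 532 under the first 3 of these, 7, 47 and 138 under the last 3 settings chosen after seeing the data, 0 by JTK_CYCLE on CPM and 0 with TMM factors (1959 and 1986 genes at an unadjusted p under 0.05), and 5 to 184 without single libraries (184 without CT16 replicate 2). The count of 57 for any time became 22, 2659, 1013, 13, 34 and 109, and 3 to 564 without single libraries. SD against control gave 1378 without the filter, 134 with DESeq2 and 0 to 478 without single libraries (4 without either CT12 replicate, 1 without CT20 replicate 1). The cosinor difference gave 1543 and 49. Against forebrain 1725 and 481 were called, and against liver 1426 and 1201, with a split of 213 higher and 684 lower for library sizes alone against 398 and 299. JTK_CYCLE ranks 12 libraries and so has a smallest p it can reach. Several genes would have to reach it together for any to pass, which limits what its count of 0 can show. RLE factors moved no count by more than 1.5 times. The cause was not tested.

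With replicate number as a block, 3 genes passed between windows, 7 the cosinor, 37 any time and 1 the cosinor difference. To look for a shared source, the difference of replicate 1 minus replicate 2 was correlated between times over genes. In SD cerebellum these correlations of differences ran from -0.23 to 0.36 in 15 pairs of times, 5 of them over 0.1. Between SD and control cerebellum at the same time they ran from -0.44 to 0.24, 3 of 6 over 0.1. The labels name no shared source for a number, and whether numbers share one is not known.

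Windows 4 h earlier turned Ciart to -0.46, Zbtb16 to -0.64 and Vat1l to 0.13. Windows 4 h later turned Hspa5 to 0.28, Pdia4 to 0.13 and Elp6 to -0.084. Arntl, Ciart and Zbtb16 passed the cosinor in all 21 other edgeR and DESeq2 fits, and Nr1d1 in 14 and Tef in 12. Ntng1 passed between windows in 21 of 26 fits, Slc7a5 in 16, Otx2 in 14, Nr1d1 in 11, Cry1 in 10 and Ciart in 8. At 2 libraries a time, calls near the threshold changed when single libraries were left out, with the gene filter rerun each time.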

Other observations

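Gm17597, an antisense transcript (chromosome 15, 81800791 to 81802613 on GRCm38) that overlaps the start of Tef on the other strand, passed the cosinor with a peak at CT22.2 and a log2 amplitude of 0.34 (adjusted p = 0.042, edgeR). It stood at 14.5 and 16.6 CPM at CT8 and at 22.9 and 23.2 CPM at CT20. The counting used strand, and antisense genes held 4.89% to 5.62% as many counts as their sense partners in these libraries. How far its level is separate from that of Tef was not tested.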
